A study of Mus musculus with 2 samples.

Results

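The genes described here encode 8 enzymes of haem synthesis and mitoferrin 1, the carrier that brings iron into the mitochondrion. They are Alas1, Alas2, Alad, Uros, Urod, Cpox, Ppox, Fech and Slc25a37, chosen by name, and every probe set whose platform annotation gave exactly 1 symbol from this list was taken. This gave 20 of 45101 probe sets and 9 of 18193 genes. 1 further probe set carries a member's symbol together with that of another gene and was left out.

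RNA was measured in wild type C57Bl6 mouse embryos at E12.5 on 2 Affymetrix arrays. The first held RNA of liver mesothelial cells, the epithelium that covers the organ, sorted by FACS for podoplanin (Pdpn) after digestion with trypsin-EDTA. The second held RNA of liver cells, matched in age, strain and genotype, and the labels do not say whether Pdpn+ cells had been taken out of them or how many embryos went into either sample. Each group is 1 array, so that no difference could be tested, and each value describes these arrays. Intensities are given as deposited, on a linear scale in arbitrary units, and a difference is always the mesothelial log2 intensity minus the liver log2 intensity. Where a pair of intensities is set side by side, the mesothelial value comes first.

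Haem is built in a chain of steps that starts in the mitochondrion, passes through the cytosol and ends in the mitochondrion again, where iron is placed in the finished ring. The first step, the joining of glycine and succinyl-CoA, sets the pace of the chain and is done by ALAS1 in most tissues and by ALAS2 in red cell precursors. At this stage of development the liver is the main site where red cells form, and those cells make haem in bulk for haemoglobin, while hepatoblasts and other cells make smaller amounts for cytochromes and other haem proteins.

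The typical gene read brighter on the mesothelial array. The median over all probe sets was 65.8 on the mesothelial and 42.3 on the liver array, and the median difference over all genes was 0.66. A gene is called above the floor where its value on at least 1 array reached the median of that array, which held for 12018 genes. Such a gene is called liver-high or mesothelial-high where the arrays differed by 2-fold or more. The highest of 27 bacterial control probe sets read 16.2 and 10.5, which is the control level used below. Of 8 mesothelial markers, 7 were above the floor, and these 7 were mesothelial-high, as were 45.4% of all genes above the floor. Pdpn, whose product was the handle of the sort, was 38.8-fold higher in the sorted cells, which checks the labels. The 6 hepatocyte markers were also bright on the mesothelial array, with Alb, the albumin gene, at 15680 against 12830.

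All members other than Alas1 read lower in mesothelial cells than in liver cells. Of their 18 probe sets, 18 had a difference below 0, among them all 16 above the floor, where 22.9% of all probe sets had a difference below 0. Liver-high were 10 of the 18 member probe sets above the floor, against 6.09% of all probe sets there. Mesothelial-high were the 2 of Alas1, against 38.4%. A gene's value is that of its brightest probe set by mean log2 value. By gene, 4 of 9 members were liver-high (Alas2, Alad, Uros and Slc25a37), against 3.83% of genes above the floor. Alas1 was the 1 mesothelial-high member, as were 45.4% of those genes. The median over the 9 genes was -0.99, beside 0.66 over all genes and 0.90 over the genes above the floor. After each array was centred on its median, 8 of the 9 members were liver-high, against 9.25% of genes above the floor, and 0 were mesothelial-high, against 23.9%.

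**Figure D1:**
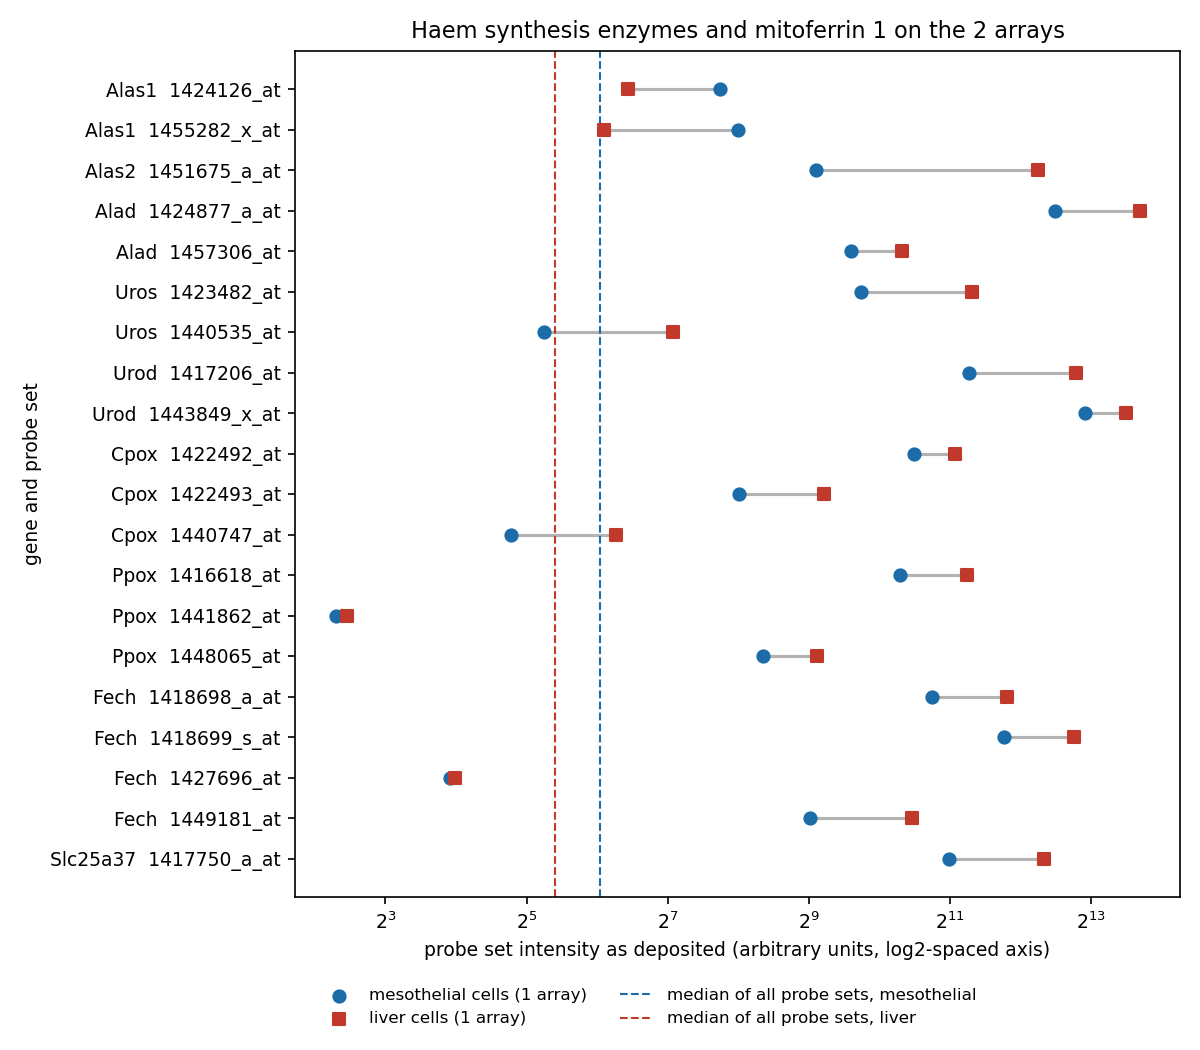
Probe set intensity as deposited (log2-spaced axis) of the 20 member probe sets in mesothelial cells (blue circles) and liver cells (red squares), 1 array each, with the median of all probe sets of each array as a dashed line. The liver square lies to the right in 18 probe sets, and the mesothelial circle lies to the right in the 2 of Alas1.

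The rank of a probe set within its own array does not depend on the scaling between arrays. Of the 20 member probe sets, 18 stood at a lower percentile on the mesothelial array than on the liver array, and the 2 of Alas1 stood higher. In a sample of mixed cells, fewer red cell precursors and less of a transcript in each of them cannot be told apart.

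Alas2, the enzyme of the first step in red cell precursors, had the widest difference of the 9 genes. It read 549.9 in mesothelial and 4892.2 in liver cells, 8.90-fold higher in the latter, a difference of -3.15 from a single probe set. It stood at percentile 99.1 on the liver array and at 82.0 on the mesothelial array. Of the 12018 genes above the floor, 19 lay further to the liver side. Alas2 RNA was lower in the sorted cells but still well above the control level of 16.2.

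Alas1, the form of most tissues, read 214.4 against 86.6 by 1 probe set, 2.48-fold higher in mesothelial cells, and 256.3 against 68.3 by the other, 3.75-fold higher. The differences of 1.31 and 1.91 had an SD of 0.42 over these 2 probe sets. The second is of a kind (_x_at) that can bind related transcripts. Relative to the median of all genes the first difference was 0.64 and the second 1.24. They stood at percentiles 80.21 and 90.80 of the differences over all probe sets other than controls. By the first probe set, 3990 genes above the floor lay further to the mesothelial side. Alas1 kept its sign under each of the scalings tried, between 0.23 and 1.31 for its brightest probe set.

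The isozymes thus differed in opposite directions. Their differences lay 4.46 apart, a 22.0-fold change in the ratio of Alas1 to Alas2 signal between the arrays, and 5.06 apart, or 33.4-fold, with the second Alas1 probe set. A scale factor between the arrays leaves these contrasts as they are.

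The promoters of the isozymes are shown because these genes for the same reaction went opposite ways. They are the 250 bases before the start, from RefSeq on GRCm38.p6, at chrX:150547167-150547416 on the plus strand for Alas2 and at chr9:106247955-106248204 on the minus strand for the upstream of 2 listed Alas1 starts, each written 5′ to 3′. Capitals mark a match to AGATAA, a form of the site bound by GATA factors, here on the opposite strand.
Alas2: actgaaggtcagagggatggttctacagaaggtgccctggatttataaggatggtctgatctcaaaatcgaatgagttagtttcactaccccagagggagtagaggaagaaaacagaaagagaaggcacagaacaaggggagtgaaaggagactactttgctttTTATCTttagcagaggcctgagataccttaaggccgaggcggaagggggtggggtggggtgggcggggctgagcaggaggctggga
Alas1: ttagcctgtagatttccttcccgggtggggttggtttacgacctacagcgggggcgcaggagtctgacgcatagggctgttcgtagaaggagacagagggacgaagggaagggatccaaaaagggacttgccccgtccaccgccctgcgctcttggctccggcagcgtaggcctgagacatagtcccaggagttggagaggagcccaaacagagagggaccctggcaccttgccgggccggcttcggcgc
The match in Alas2 spans bases 86 to 81 before the start. AGATAA was searched on both strands and was present in 9.99% of 32851 promoter windows of the same length. The table held 10 starts of 7 members, and Alas2 was the 1 member with a match to AGATAA. Other forms of the GATA site were not searched, so this match does not set Alas2 apart from the other members. CCACACCC, a box of the kind bound by Klf1, and TGANTCA, the core shared by NF-E2 and AP-1, which were searched the same way, matched in 0 of the 10, against 3.20% and 6.75% of all windows. Other forms of these sites were not searched either, so the windows may still hold sites of these kinds. The Alas2 window held 4 CG dinucleotides and the Alas1 window shown held 16, against a median of 6 over all windows. As few as in Alas2 were found in 44.4% of all windows, and the lowest count among the other members was 5. The window of the other Alas1 start held 42. Fech and Slc25a37 were not searched.

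The cytosolic enzymes were lower in mesothelial cells at every probe set. Alad, which joins aminolevulinic acid molecules into porphobilinogen, read 5765.6 against 13210.8 by its brighter probe set and 778.0 against 1285.5 by the other, differences of -1.20 and -0.72 with an SD of 0.33. Its brighter probe set stood at percentile 99.9 on the liver array and still at 98.7 on the mesothelial array.

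Uros, which closes the porphyrin ring, had the widest difference after Alas2. It read 858.8 against 2544.3, 2.96-fold higher in liver cells, and 37.9 against 134.6 by a dimmer probe set, 3.55-fold higher. The differences of -1.57 and -1.83 had an SD of 0.18, the smallest among the 7 members with several probe sets.

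Urod, which trims the side chains of the ring, had the largest SD between probe sets of these members. It read 2482.1 against 7095.8, a difference of -1.52, and 7737.6 against 11533.9 by an _x_at probe set, a difference of -0.58, with an SD of 0.66 between them. The _x_at probe set was the one taken for the gene, so that among the settings tried Urod was liver-high only where such probe sets were left out, the median over probe sets was used, or the arrays were centred on their medians, on reference genes or on hybridisation controls.

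The enzymes of the last steps sit in the mitochondrion. Cpox, which oxidises coproporphyrinogen, read 1436.7 against 2161.3, 258.4 against 592.5 and 27.4 against 76.8 over its 3 probe sets, differences of -0.59, -1.20 and -1.49 with an SD of 0.46. The brightest gave the smallest of these.

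Ppox, which oxidises protoporphyrinogen, read 1260.8 against 2435.8 and 327.3 against 556.5, differences of -0.95 and -0.77. The remaining probe set read 4.9 and 5.5, within control level on both arrays, and gives no fold. None of the Ppox probe sets reached a 2-fold difference as deposited.

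Fech, ferrochelatase, which inserts iron into the ring, read 3495.0 against 6932.4, 1714.3 against 3606.2 and 518.1 against 1411.1, differences of -0.99, -1.07 and -1.45. The first of these, an _s_at probe set taken for the gene, lay just short of the 2-fold line. The remaining probe set read 15.1 and 15.9, below the floor, with the mesothelial value within control level.

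Slc25a37, mitoferrin 1, supplies iron to ferrochelatase in red cell precursors. It read 2037.1 in mesothelial and 5172.5 in liver cells, 2.54-fold higher in the latter, a difference of -1.34 from its single probe set. It stood at percentile 99.2 on the liver array and at 94.4 on the mesothelial array. Slc25a28, mitoferrin 2, the paralog of other tissues, read 640.7 against 273.2, 2.35-fold higher in mesothelial cells, and kept its sign under each scaling tried, with 0.15 at the lowest. The differences of the mitoferrins lay 2.57 apart, a 5.95-fold change in the ratio of their signals between the arrays. For the mitoferrins, as for the ALA synthases, the difference of the red cell form lay below 0 and that of the other form above 0. A difference above 0 was the common case, since 16.0% of genes above the floor lay below 0. Relative to all genes the difference of Slc25a28 was 0.57, and 4313 genes above the floor lay further to the mesothelial side.

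Apart from the ALA synthases, the steps of the pathway lay close together. The 3 cytosolic enzymes had gene differences from -1.57 to -0.58 with a median of -1.20, and the 4 mitochondrial members from -1.34 to -0.59 with a median of -0.97. These ranges overlap. Over the probe sets above the floor these 7 genes spanned -1.83 to -0.58. Alas2 lay outside that span. The pooled SD between probe sets of the same gene, over 5322 genes on these arrays, was 0.70, and it holds no variation between embryos or sorts.

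**Figure D2:**
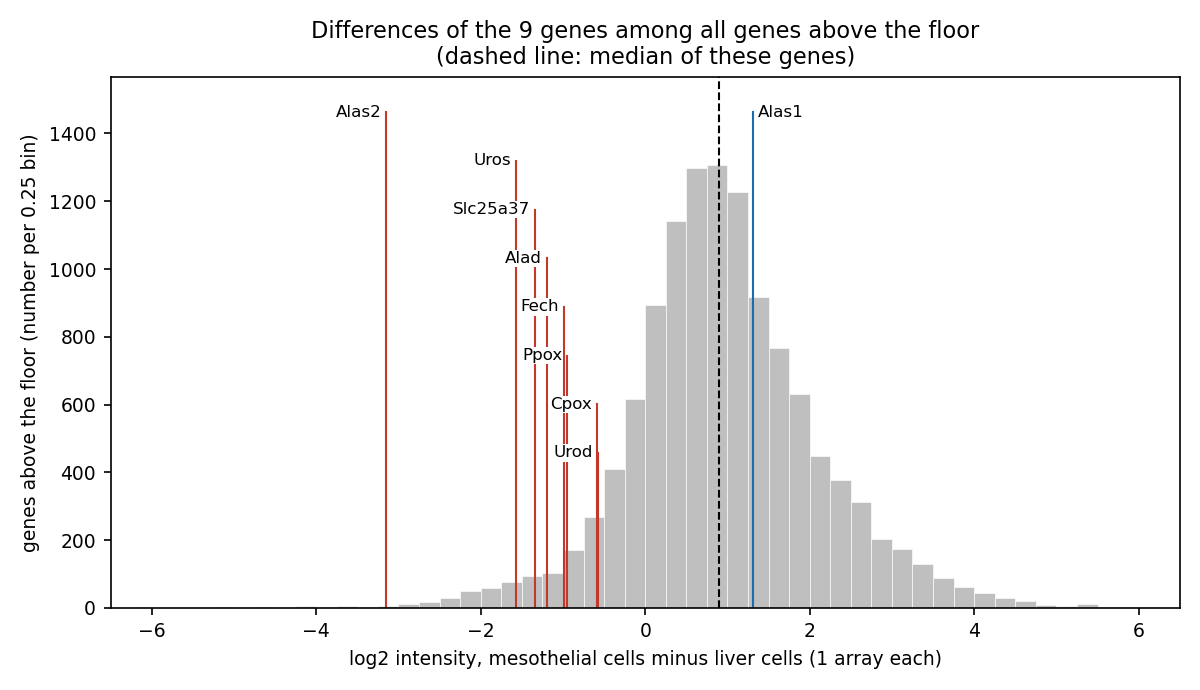
Number of genes above the floor in bins 0.25 wide of the difference in log2 intensity, mesothelial minus liver cells, with the 9 members as vertical lines (red below 0, blue above 0; line heights only separate the names). The members other than Alas1 lie between -3.15 and -0.58, left of the median of 0.90 (dashed), and Alas1 lies right of it at 1.31.

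The genes whose values lay nearest to those of Alas2 were taken by the straight-line distance in the plane of the 2 log2 intensities, which rests on 2 arrays only. They were Tmcc2 at a distance of 0.44, Gadd45a at 0.46, the blood group gene Rhd at 0.50, the embryonic globin gene Hbb-bh1 at 0.57 and Tent5c at 0.65. Their differences ran from -3.39 for Hbb-bh1 to -2.24 for Tent5c.

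Red cell markers went the same way as the members other than Alas1. Of 8 erythroid markers measured, 8 had a difference below 0, against 16.0% of genes above the floor, and 4 were liver-high, against 3.83%. Centred on array medians, 7 of the 8 were liver-high, against 9.25%. The median of the list as deposited was -1.24, beside -1.09 for the 8 members without Alas1. The summed intensity of the list was 17140 in mesothelial and 35180 in liver cells, and 0 of its markers were at control level on both arrays. Epb42, a protein of the red cell membrane, read 62.7 against 1146, a difference of -4.19, and the anion exchanger gene Slc4a1 read 3902 against 11030, a difference of -1.50. Epor, the receptor for erythropoietin, read 707.4 against 821.7, a difference of -0.22. Alas2 at -3.15 lay between Epb42 and the next marker of the list, Trim10, at -2.93. The members other than Alas1 and Alas2 lay between Rhd, at -2.60, and Epor. The part of red cell precursor content in the members' differences was not tested.

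For the lists of other cell types and of the wider pathway, the shares of all genes above the floor to set beside each count are 3.83% liver-high and 45.4% mesothelial-high as deposited, and 9.25% and 23.9% with the arrays centred on their medians. Megakaryocyte markers, of a lineage that shares Gata1 with red cells, were mesothelial-high for 5 of 5, and for 2 of 5 when centred, with summed intensities of 20050 and 6256. Pf4 read 9712 against 3479 and Itga2b 1257 against 219.3. Macrophage markers, of cells that break down haem, were mesothelial-high for 5 of 6, and for 2 of 6 when centred. Their median was 1.32 as deposited and 0.24 on hybridisation controls, and they summed 5555 and 1770, with Csf1r at 2823 against 516.3. Granulocyte markers summed 2885 and 6580, with 4 of the 5 above the floor liver-high, as deposited and when centred. The remaining one, Mpo, went the other way at 2552 against 1477 and made up most of the mesothelial sum. Elane, below the floor, also read higher in mesothelial cells, at 48.6 against 21.5. Hepatocyte markers summed 67970 and 44800, with a median of 0.67 that turned sign on hybridisation controls. Mesothelial markers summed 26650 and 3688. Their part in the members' differences was not tested.

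Of 9 mitochondrial partners of haem synthesis, 3 were liver-high (3.83% of all genes above the floor) and 2 mesothelial-high (45.4%), and 4 and 1 when centred, with a median of 0.08 that turned sign under other scalings. The liver-high genes were Slc25a38, the glycine carrier that feeds the first step, at 257.5 against 613.7, Abcb10, which stabilises mitoferrin 1, at 2519 against 5113, and Fam210b, a mitochondrial membrane protein of red cell precursors, at 959.7 against 2586. Abcb10 and Fam210b had SDs of 0.87 and 0.74 over 3 probe sets each. The differences of Abcb10 ran from -1.63 to 0.08, so that its sign depended on the probe set. Tmem14c, which helps porphyrin into the mitochondrion, read 4008 against 6200, a difference of -0.63. On the other side were Slc25a28 and Pgrmc1, a haem-binding membrane protein, at 1956 against 492.9.

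Of 10 genes of haem export, binding and breakdown, 3 were liver-high (3.83% of all genes above the floor) and 2 mesothelial-high (45.4%), and 3 and 0 when centred, with a median of 0.52 that turned sign under other scalings. Hebp1, a haem-binding protein, read 477.3 against 2422, 5.07-fold higher in liver cells, Blvrb, a reductase abundant in red cells, 1725 against 6702, and the porphyrin exporter gene Abcg2 1887 against 4180. Hmox1, the inducible haem oxygenase, which opens the ring, read 1285 against 628.6, and the exporter family gene Flvcr2 91.7 against 39.0. The difference of Hmox1, 1.03, was 0.37 relative to all genes, and that of Flvcr2 0.57.

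Ferrochelatase carries an iron-sulfur cluster, and haem synthesis shares its iron with the assembly of such clusters. Of 10 genes of cluster assembly, 0 were liver-high (3.83% of all genes above the floor) and 1 mesothelial-high (45.4%), and 3 and 0 when centred, with a median of 0.07 that turned sign under other scalings. Isca1 read 1400 against 2451 and Glrx5 1133 against 1737, differences of -0.81 and -0.62, while Fdx1 read 422.2 against 203.1 and Nfs1 704.2 against 568.2, differences of 1.06 and 0.31. The 3 probe sets of Nfs1 ran from -0.79 to 0.31, so that its sign depended on the probe set. Isca1 had an SD of 0.74 over 2 probe sets.

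**Figure D3:**
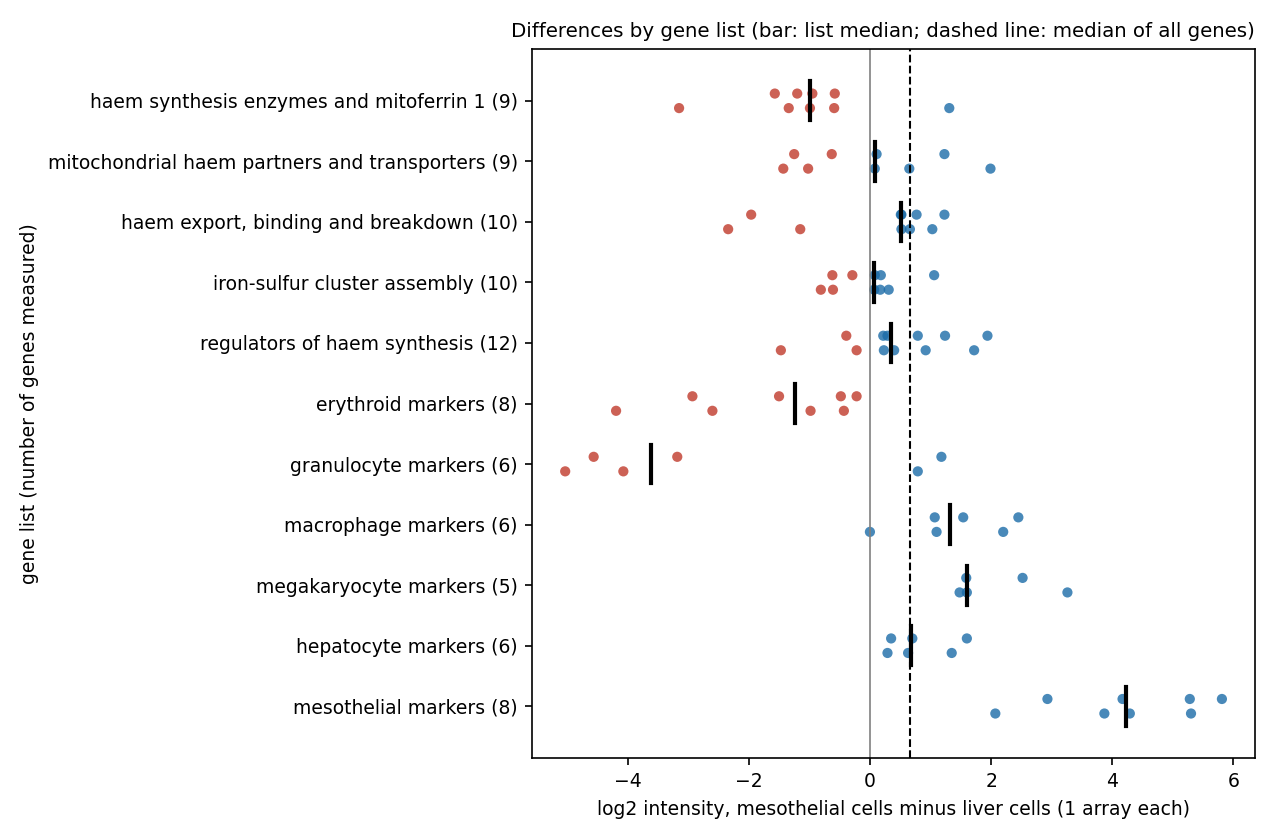
Difference in log2 intensity, mesothelial minus liver cells (1 array each), of each gene in 11 lists, with the list median as a black bar and the median of all genes, 0.66, as a dashed line; red points lie below 0. The members and the erythroid markers have medians of -0.99 and -1.24, and the 4 other haem and iron-sulfur lists have medians from 0.07 to 0.52.

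Of 12 regulators of the pathway, 1 was liver-high (3.83% of all genes above the floor) and 3 mesothelial-high (45.4%), and 2 and 2 when centred, with a median of 0.35 that turned sign under other scalings. Gata1, the transcription factor of red cell and megakaryocyte genes, read 2464 against 2014, and Klf1, the red cell factor, 2494 against 2899, differences of 0.29 and -0.22. Nfe2, a factor of the same lineages, was the liver-high gene of the list, at 572.4 against 1581. Eif2ak1, the haem-sensing kinase that slows protein synthesis when haem is short, read 1078 against 1414, with an SD of 0.53 over 5 probe sets. Aco1, which is also an iron sensor that binds Alas2 mRNA and blocks its translation, read 636.3 against 165.3. The oxygen-regulated factor Hif1a read 4600 against 1396. Their SDs were 0.99 over 3 and 1.31 over 4 probe sets. The probe sets of Hif1a ran from -0.68 to 2.13, so that its sign depended on the probe set.

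**Figure D4:**
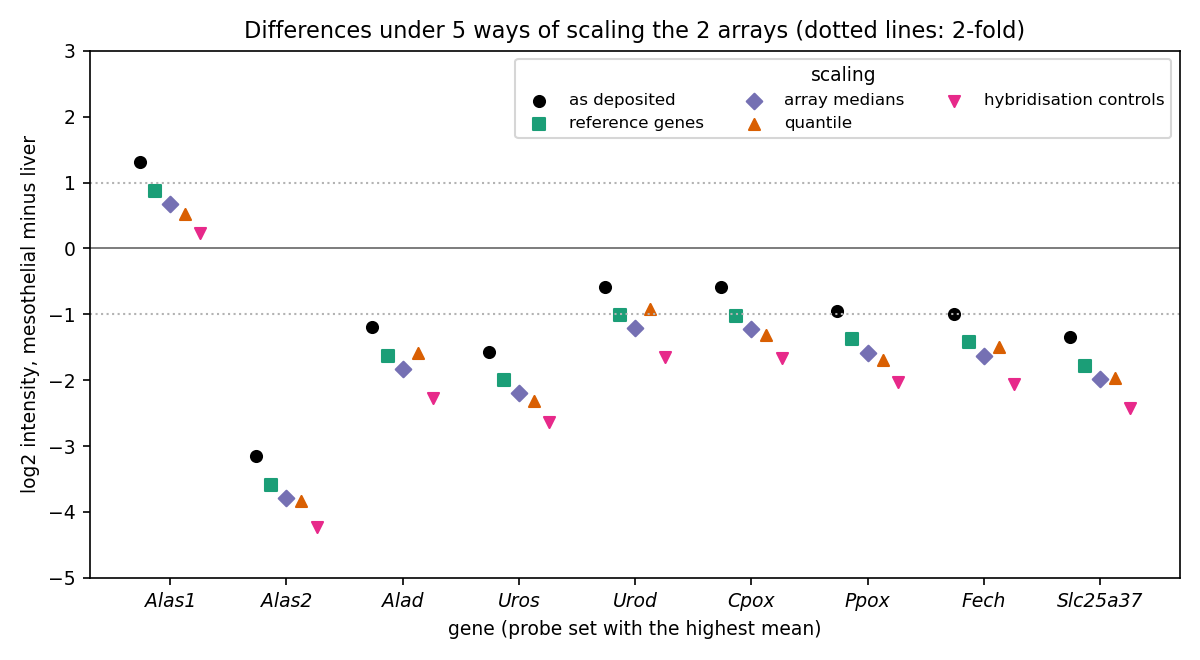
Difference in log2 intensity, mesothelial minus liver cells, of the 9 members under 5 ways of scaling the 2 arrays, with the 2-fold lines dotted. Alas1 stays above 0, between 0.23 and 1.31, and the other 8 stay below 0 in each, with Alas2 between -4.23 and -3.15.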

How the data were processed

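RNA from 20 ng samples was amplified and labelled with the NuGEN Ovation systems, per the labels' protocols, which can alter the ratios of transcripts. The deposited values are taken as linear intensities, from their range and skew. RMA and Partek are named, per the submitters' processing notes, and their versions and roles are not given in the sources used here. Their log2 was taken, with no further scaling in the main values. A free-text label speaks of far earlier embryos, and the stated age was used. Of 45101 probe sets, 34945 had 1 symbol, 932 several, 9160 none and 64 were controls. The number of arrays limits the precision, as do the spread between probe sets and the unknown scaling.

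The members and all gene lists were chosen with earlier results of these data known. Named are every member probe set, from each of the 4 pathway lists the 2 genes furthest in each direction above the floor, the 5 genes nearest to Alas2, and a set of genes fixed by name, of which those measured are given. Abcg2, Rhd, Trim10, Epor, Mpo and Elane were added after their values were seen. Listed genes without a value are not analysed here. Alternatives were other probe set rules, scalings, floors and a 4-fold threshold, and centring on hybridisation controls was added after the data were seen. The planned comparison of protein sequences was not run. The calculations used Python 3.11.15, pandas 2.3.3, numpy 2.4.6 and scipy 1.17.1, and were tested on simulated data.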

Additional observations from a re-analysis of the deposited data

How the results depend on the processing

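The 8 members other than Alas1 kept a negative difference and Alas1 a positive one under every scaling and probe set rule tried. Their number at least 2-fold higher in liver cells, 4 as deposited, was 8 with the median difference of reference genes removed, on array medians and on hybridisation controls, 7 by quantile normalization and 1 at a 4-fold threshold. The number higher in mesothelial cells, 1 as deposited, was 0 under each of these and with a floor at the 75th percentile. Of all genes above the floor, 3.83% were liver-high as deposited and 9.25% on array medians. Mesothelial-high were 45.4% and 23.9%. Shares under the other settings are not given, so the member counts there have no background beside them. The members' median moved from -0.99 to -2.06 on hybridisation controls. These scalings shift the difference towards the liver side, by 0.43 (reference genes), 0.64 (array medians) and 1.08 (hybridisation controls).

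Medians of other lists turned sign. On array medians, hybridisation controls and by quantile normalization, that of haem export, binding and breakdown was -0.12, -0.56 and -0.30, that of iron-sulfur assembly -0.56, -1.0 and -0.68, that of mitochondrial partners -0.56, -1.0 and -0.74, and that of regulators -0.29, -0.73 and -0.41. With reference genes removed the last 3 were -0.36, -0.36 and -0.09. Without _x_at and _s_at probe sets that of mitochondrial partners was -0.52, and on hybridisation controls that of hepatocyte markers was -0.41. No paired analysis was possible because each group has 1 array.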
